A study of Homo sapiens with 15 samples.

Results

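Expression of SOX transcription factors was described in sorted PEO1 cells. PEO1 is a long-established human line of ovarian cancer. The set was SOX2, SOX4, SOX5, SOX7, SOX9, SOX11, SOX12, SOX13, SOX17 and SOX18, and its members were all 29 probe sets that the array annotation assigns to one of these 10 genes, of 54613 non-control probe sets on the array. A probe set is a group of short oligonucleotides that together read 1 transcript, and its value is a brightness with no absolute unit. The genes were selected with the measured differences between the fractions on these same arrays in view, so their values are given as a description and no test on them counts as evidence. Cells in RPMI-1640 medium with serum were detached, stained for the surface proteins CD90 and CD133 and separated by flow sorting, with no other treatment named. The groups were CD90+/CD133+ cells, CD90+/CD133- cells and CD90-/CD133- cells, and each group had 5 whole-genome arrays. All come from 1 cell line. The design text names triplicates, but the labels number the replicates of each fraction 1 to 5, which was followed here. The methods call the arrays of the CD90+/CD133- and CD90-/CD133- cells biological replicates and do not mention the CD90+/CD133+ arrays, so for these p-values measure the spread between arrays, which may be technical.

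SOX proteins bind the minor groove of DNA through an HMG domain related to that of SRY and bend it, usually beside a partner factor. The family is divided by sequence into groups that often act redundantly. SOX2 (SOXB1) maintains pluripotent and neural progenitor cells. SOX4, SOX11 and SOX12 (SOXC) act in progenitors of neural, skeletal and other lineages. SOX5 and SOX13 (SOXD) lack a transactivation domain of their own, and SOX9 (SOXE) directs cartilage and gonad development. SOX7, SOX17 and SOX18 (SOXF) act in endoderm and in blood vessels and can restrain beta-catenin signalling. SOX17 is also known, beside PAX8, as a factor of Mullerian and ovarian cancer epithelium.

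The sorted proteins checked the labels. THY1, which encodes CD90, was at 728.5 or above in CD90+/CD133+ cells and at 795.3 or above in CD90+/CD133- cells, against 101 or below in CD90-/CD133- cells. PROM1, the gene of CD133, was at 429 or above in CD90+/CD133+ cells, against 156 or below in CD90+/CD133- cells and 44.1 or below in CD90-/CD133- cells. In CD90-/CD133- cells replicate 3 was the highest for both genes. All 8 ovarian epithelial markers were above 16 on every array, and their summed level was 25745 to 37356 in CD90+/CD133+ cells, 27707 to 36368 in CD90+/CD133- cells and 40666 to 50544 in CD90-/CD133- cells. The sum follows its brightest genes, and the members went both ways, with 3 called higher (CLDN3 among them) and 4 lower (KRT8 and KRT18 among them) in each CD90+ fraction. Over all genes, with 1 probe set each, 30.2% were called in CD90+/CD133- cells and 28.8% in CD90+/CD133+ cells, both against CD90-/CD133- cells. The 8 endothelial markers summed to 186 to 209 in CD90+/CD133+ cells, 177 to 192 in CD90+/CD133- cells and 188 to 205 in CD90-/CD133- cells, with at least 2 of them under 16 throughout. The 8 fibroblast markers summed to 227 to 307 over the CD90+ arrays and 321 to 386 in CD90-/CD133- cells, and the 4 measured leukocyte markers to 125 to 214 over the CD90+ arrays and 94.6 to 119 in CD90-/CD133- cells. Only FAP was called lower among the fibroblast markers, at 31.9 to 41.6 in CD90+/CD133+ cells and 26.5 to 44.5 in CD90+/CD133- cells, against 106 to 197 in CD90-/CD133- cells, while DCN was called higher in CD90+/CD133- cells. Of the leukocyte markers only CD14 was called, higher in both CD90+ fractions. The part of these shifts in the SOX values was not tested. RNA integrity was read as the log2 signal of the 3′ over the 5′ control probes of GAPDH and ACTB. The GAPDH gap averaged 0.0498 ± 0.0408 in CD90+/CD133+ cells, 0.186 ± 0.0789 in CD90+/CD133- cells and 0.0565 ± 0.0317 in CD90-/CD133- cells (SD, n = 5 each). The gap in CD90+/CD133- cells exceeded that in CD90-/CD133- cells in 5 of 5 same-numbered pairs (2-sided exact permutation test of pairs, p = 0.0625, the smallest these 5 pairs allow, and 0.188 after adjustment over 6 comparisons). It exceeded the gap in CD90+/CD133+ cells in 5 of 5 pairs with the same p values. The ACTB gap averaged 1.7 ± 0.662 in CD90+/CD133+ cells, 2.46 ± 0.564 in CD90+/CD133- cells and 1.84 ± 0.322 in CD90-/CD133- cells (SD, n = 5 each). It was wider in CD90+/CD133- cells than in either other fraction in 4 of 5 pairs each (exact p = 0.125 and adjusted p = 0.188 for both).

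SOX7 was many times brighter in both CD90+ fractions than in CD90-/CD133- cells, SOX11 was dimmer in both, and SOX12 was brightest in CD90+/CD133- cells. SOX4 was lowest in CD90+/CD133+ cells in 5 of 5 same-numbered sets by its bright probe sets, though not by its dim ones. SOX9 was brighter in CD90+/CD133- cells by under 2-fold. SOX2, SOX5 and SOX13 had log2 fold changes of 0.25 or less in size by their brightest probe sets, and SOX17 and SOX18 stayed under 16 on every array. Any value under 16 was raised to 16 ahead of the log2 step, so changes of dim probe sets are understated. Of the 29 probe sets, 14 were at 16 or above on all 15 arrays and 8 were under 16 on all of them.

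Calls were made at an adjusted p under 0.05 in a limma fit over 54613 probe sets with the replicate number as a block. In CD90+/CD133- against CD90-/CD133- cells 6 of the 29 probe sets were called higher (SOX7, SOX9 and SOX12) and 4 lower (SOX4 and SOX11), where 11.5% of all probe sets were called higher and 11.2% lower. In CD90+/CD133+ against CD90-/CD133- cells 2 were called higher (SOX7) and 7 lower (SOX4 and SOX11), beside 9.53% and 11.7% of all probe sets. In CD90+/CD133+ against CD90+/CD133- cells none was called higher and 3 were called lower (SOX4 with 2 probe sets and SOX12 with 1), beside 1.1% and 1.87% of all probe sets. In that last comparison 1 probe set (1567906_at of SOX4) was higher and 8 were lower at an unadjusted p under 0.05 in limma. At the same unadjusted limit 2 were higher in the methods' t-test, of which none passed Benjamini-Hochberg adjustment. The median log2 fold change over the 29 probe sets was 0 in both comparisons with CD90-/CD133- cells and -0.03 between the CD90+ fractions, against 0 over all probe sets in each comparison. The first 2 comparisons share the CD90-/CD133- arrays, so their counts are not independent. Since the genes were selected on these contrasts, nothing is read from these shares.

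**Figure D1:**
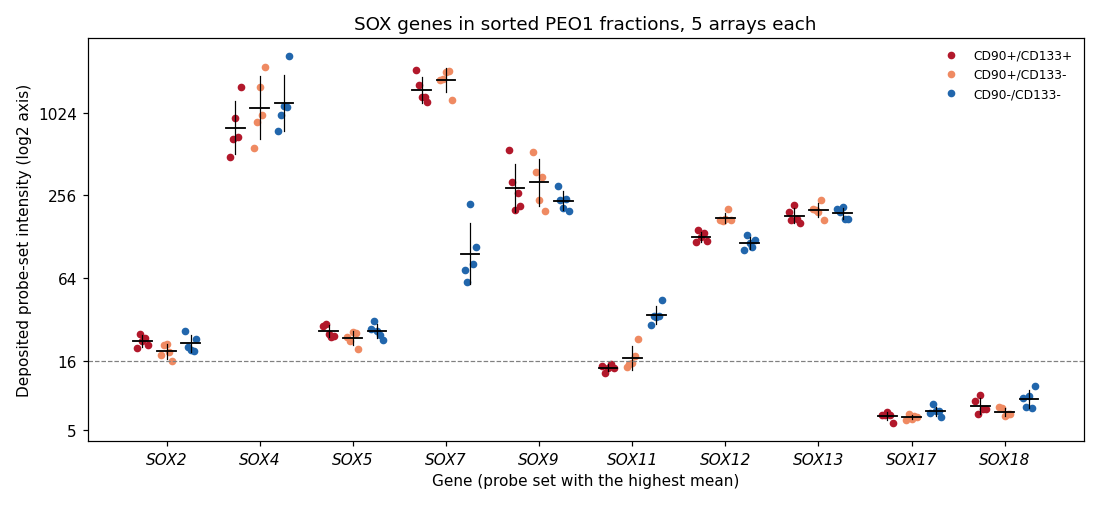
Deposited intensity of the brightest probe set of each SOX gene (log2 axis) on the 5 arrays of CD90+/CD133+ cells, CD90+/CD133- cells and CD90-/CD133- cells, from left to right for each gene. Horizontal bars are means and vertical lines SD, both on the log2 scale, the dashed line is 16, and replicates 1 to 5 run from left to right within a group. SOX7 stands at 1218 or above on all CD90+ arrays and at 221 or below on all CD90-/CD133- arrays.

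**Figure D2:**
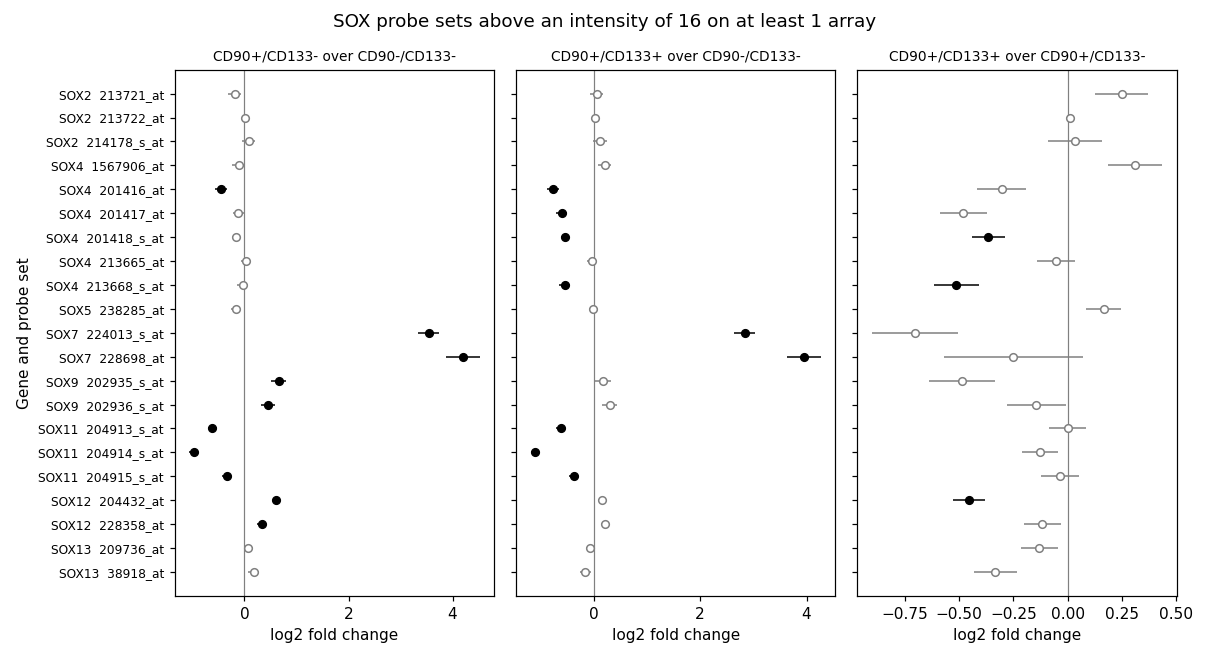
Log2 fold change of the 21 SOX probe sets that reached 16 on at least 1 array, in the 3 comparisons, with standard errors as bars. Filled points were called at an adjusted p under 0.05, and each panel has its own horizontal scale. The SOX7 probe sets lie at 2.84 to 4.20 in the first 2 panels, where the other probe sets lie between -1.11 and 0.65.

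Of the SOXF genes, SOX7 had the widest difference of all members. Its brighter probe set 228698_at read 2099, 1621, 1335, 1320.3 and 1218 on the CD90+/CD133+ arrays of replicates 1 to 5. It read 1785, 1813, 2037, 2076 and 1268 on the CD90+/CD133- arrays, against 72.5, 59.9, 221, 80.7 and 107 on the CD90-/CD133- arrays. Neither CD90+ fraction overlapped CD90-/CD133- cells, while the CD90+ fractions overlapped each other. The log2 fold change against CD90-/CD133- cells was 3.95 in CD90+/CD133+ cells (standard error 0.319, 15.5-fold) and 4.20 in CD90+/CD133- cells (standard error 0.319, 18.4-fold). The CD90-/CD133- replicate 3 array, which was also the highest of its group for THY1 and PROM1, held the 221. Without it the log2 fold change was 4.25 in CD90+/CD133+ cells and 4.50 in CD90+/CD133- cells. Less RNA per cell and fewer cells carrying it cannot be told apart in sorted bulk samples.
The other SOX7 probe set, 224013_s_at, read 169, 126, 113, 121 and 114 on the CD90+/CD133+ arrays. It read 294, 229, 178, 210.1 and 151 on the CD90+/CD133- arrays, against 10.3, 10.6, 27.3, 11.6 and 14.7 on the CD90-/CD133- arrays. In CD90-/CD133- cells it was under 16 on 4 of 5 arrays, with replicate 3 again the exception. Its log2 fold change against CD90-/CD133- cells was 2.84 in CD90+/CD133+ cells and 3.54 in CD90+/CD133- cells (standard error 0.197 each). Between the CD90+ fractions it was lower in CD90+/CD133+ cells in 5 of 5 pairs (log2 fold change -0.70, standard error 0.197), where 228698_at was lower in 4 of 5 (-0.25, standard error 0.319), and neither was called. Over the 30 nearest measured genes on the chromosome that were expressed, the median log2 fold change exceeded that of all expressed genes by 0.11 in CD90+/CD133- cells and 0.03 in CD90+/CD133+ cells, and none of the 30 changed by as much as SOX7. They ranged from -0.98 to 2.68 in CD90+/CD133- cells and from -1.55 to 2.45 in CD90+/CD133+ cells. Around the other members the median differed from that of all expressed genes by -0.33 (SOX12) to 0.33 (SOX13) in CD90+/CD133- cells. In CD90+/CD133+ cells it differed by -0.40 (SOX12) to 0.33 (SOX13).
SOX17, read by 219993_at and 230943_at, did not exceed 7.15 on any CD90+ array, nor 7.70 on any CD90-/CD133- array. SOX18, read by the single probe set 219568_x_at, read 6.30 to 8.90 in the CD90+ fractions and 7.25 to 10.4 in CD90-/CD133- cells. Both genes were therefore under 16 throughout, at levels where no difference can be read. An x in a probe-set name marks oligonucleotides that may also bind other transcripts.

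Among the SOXC genes the members moved apart. SOX11 was lower in both CD90+ fractions, SOX4 was lower in CD90+/CD133+ cells by 4 probe sets and in CD90+/CD133- cells by 1, and SOX12 was higher in CD90+/CD133- cells. SOX11, a factor of immature neurons and of several cancers, read 14.6, 13.0, 14.0, 15.2 and 14.2 by 204914_s_at on the CD90+/CD133+ arrays. It read 14.3, 15.0, 15.2, 17.2 and 23.1 on the CD90+/CD133- arrays, against 29.0, 33.7, 33.4, 33.9 and 43.8 on the CD90-/CD133- arrays. All CD90+ arrays lay below all CD90-/CD133- arrays. Since every CD90+/CD133+ array was under 16, SOX11 was at least 2.15-fold lower there, and in CD90+/CD133- cells its log2 fold change was -0.98 (standard error 0.0828) with 3 of 5 arrays under 16.
The other SOX11 probe sets had the same order. With 204913_s_at all 10 CD90+ arrays were under 16 (6.60 to 10.0 in CD90+/CD133+ cells and 10.7 to 13.7 in CD90+/CD133- cells) and all CD90-/CD133- arrays were at 19.3 to 30.1, which is at least 1.54-fold lower in either CD90+ fraction. With 204915_s_at the arrays read 16.8 to 20.8 in CD90+/CD133+ cells, 16.7 to 21.3 in CD90+/CD133- cells and 22.9 to 25.9 in CD90-/CD133- cells. All 3 probe sets thus read SOX11 near the lower end of the scale, and each separated the CD90+ arrays from the CD90-/CD133- arrays. The share of all probe sets that separate these arrays was not counted, so nothing is read from this number.

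**Figure D3:**
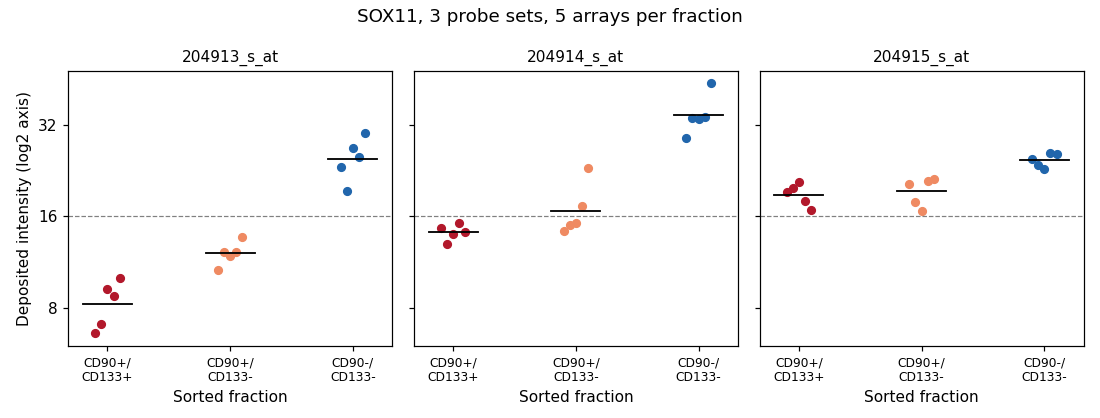
Deposited intensity of the 3 SOX11 probe sets (log2 axis) on 5 arrays each of CD90+/CD133+ cells, CD90+/CD133- cells and CD90-/CD133- cells, with means on the log2 scale as bars and 16 as the dashed line. In each panel the CD90+ arrays lie below the CD90-/CD133- arrays, whose values for 204914_s_at are 29.0 to 43.8.

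SOX4, which is often raised in carcinomas and acts in the response to TGF-beta, had 4 bright probe sets. The brightest, 201417_at, read 483, 661, 929, 683 and 1568 on the CD90+/CD133+ arrays. It read 564, 878, 1571, 978 and 2208 on the CD90+/CD133- arrays and 754, 989, 1148, 1131 and 2640.1 on the CD90-/CD133- arrays. The groups overlapped widely, yet within each replicate number the CD90+/CD133+ array was the lowest. The log2 fold change in CD90+/CD133+ cells was -0.60 against CD90-/CD133- cells and -0.48 against CD90+/CD133- cells (standard error 0.107, lower in 5 of 5 pairs each), and that of CD90+/CD133- against CD90-/CD133- cells was -0.12 (lower in 4 of 5 pairs). The probe sets 201416_at, 201418_s_at and 213668_s_at gave -0.76, -0.54 and -0.55 for CD90+/CD133+ against CD90-/CD133- cells, each lower in 5 of 5 pairs. Of the 4, only 201416_at was also called in CD90+/CD133- against CD90-/CD133- cells (log2 fold change -0.45). Between the CD90+ fractions 201418_s_at (-0.36, adjusted p = 0.0467 in limma) and 213668_s_at (-0.51, adjusted p = 0.0398) were called and 201417_at was not (adjusted p = 0.0543), though 7 of 32 alternatives gave it the call. All lay close to the threshold, and with a replicate number or array left out at most 1 SOX probe set was called lower there, except without CD90-/CD133- replicate 3 (6) or 4 (2). The remaining probe sets, 1567906_at and 213665_at, were dim (15.2 to 36.1 over all arrays) and gave 0.20 and -0.03 for CD90+/CD133+ against CD90-/CD133- cells. Between the CD90+ fractions 1567906_at was higher in CD90+/CD133+ cells in 5 of 5 pairs (log2 fold change 0.31, standard error 0.125) and not called, and 213665_at gave -0.05. Without the replicate block the log2 fold change of 201417_at in CD90+/CD133+ against CD90-/CD133- cells kept its size and was no longer called. With the block 7 SOX probe sets were called lower there (4 of SOX4 and 3 of SOX11), and without it 3. The other SOX4 calls in that comparison thus cannot be taken to hold without the block.

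SOX12 was read by 204432_at at 117, 143, 128, 136 and 119 on the CD90+/CD133+ arrays. On the CD90+/CD133- arrays it read 169, 168, 172, 204 and 168, and on the CD90-/CD133- arrays 102, 132, 115, 107 and 121. All CD90+/CD133- arrays lay above all arrays of the other fractions, which overlapped each other. The log2 fold change was 0.61 in CD90+/CD133- against CD90-/CD133- cells (standard error 0.0747), 0.16 in CD90+/CD133+ against CD90-/CD133- cells and -0.45 in CD90+/CD133+ against CD90+/CD133- cells. The call of the last was lost in a fit on the 10 arrays of those fractions alone, without any replicate number, and for 7 of the 15 arrays left out singly, at log2 fold changes of -0.52 to -0.40 over all leave-outs. With 228358_at the differences were smaller, at 0.33, 0.21 and -0.12 for the same comparisons in turn (standard error 0.0837), with values of 49.3 to 57.8, 51.6 to 60.7 and 38.9 to 56.3 in CD90+/CD133+ cells, CD90+/CD133- cells and CD90-/CD133- cells. CD90+/CD133- cells also had the widest mean GAPDH and ACTB gaps between 3′ and 5′ probes, as given above, and their part in the SOX12 and SOX9 values was not tested.

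Promoter sequences of 5 of the 10 members were in the RefSeq table of GRCh38.p14 (SOX2, SOX4, SOX5, SOX12 and SOX13). Those of SOX4 and SOX12 are shown because both are SOXC genes with a probe set called lower in CD90+/CD133+ against CD90+/CD133- cells. Each is the 250 bases before the gene's start, on the plus strand, chr6:21593501-21593750 for SOX4 and chr20:325302-325551 for SOX12. Capitals mark the CCAAT box, read as CCAAT or, on the other strand, ATTGG.
SOX4: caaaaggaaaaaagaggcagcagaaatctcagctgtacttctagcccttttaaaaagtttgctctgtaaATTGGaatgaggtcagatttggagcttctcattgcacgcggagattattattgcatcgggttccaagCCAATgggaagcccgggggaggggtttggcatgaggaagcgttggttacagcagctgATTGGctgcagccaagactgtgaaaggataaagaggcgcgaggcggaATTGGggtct
SOX12: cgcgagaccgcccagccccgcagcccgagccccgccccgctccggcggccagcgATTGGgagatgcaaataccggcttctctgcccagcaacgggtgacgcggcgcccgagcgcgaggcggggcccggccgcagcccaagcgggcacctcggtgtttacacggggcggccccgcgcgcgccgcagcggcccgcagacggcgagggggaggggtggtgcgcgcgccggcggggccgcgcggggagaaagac
The SOX4 stretch holds 4 such matches and the SOX12 stretch 1, and 32% of the 35116 promoters in the table hold at least 1 in the same 250 bases. The shared core of SOX binding sites, read as ACAAT or ATTGT, was found in neither, and 24.6% of promoters hold it. The CCAAT and SOX spellings cannot match the same 5 bases. Among the 5 matched members only SOX5 held that core, with 2 matches. A match of letters is not a bound site, and the arrays measured no binding.

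SOX9 was brightest in CD90+/CD133- cells on average, with wide spread between replicate numbers. Its brighter probe set 202936_s_at read 546, 321, 200.4, 266 and 212 on the CD90+/CD133+ arrays. It read 529.8, 381, 236, 349 and 197 on the CD90+/CD133- arrays, against 299.9, 238, 208, 239 and 197 on the CD90-/CD133- arrays. The groups overlapped, and replicate 1 was the highest in each fraction. The log2 fold change was 0.44 in CD90+/CD133- against CD90-/CD133- cells (standard error 0.136, higher in 4 of 5 pairs) and 0.30 in CD90+/CD133+ against CD90-/CD133- cells (higher in 4 of 5 pairs, not called). The first was not called without the replicate block, nor with any of replicates 1 to 4 left out, nor for 11 of the 15 arrays left out singly (log2 fold changes of 0.33 to 0.56 over all leave-outs). The second probe set, 202935_s_at, gave 0.65 (standard error 0.150, higher in 5 of 5 pairs) and 0.17, and -0.49 for CD90+/CD133+ over CD90+/CD133- cells (lower in 5 of 5 pairs, not called).

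No probe set of SOX2, the SOXB1 member, or of SOX5 and SOX13, the SOXD members, was called in any comparison. By its brightest probe set 213721_at, SOX2 read 19.9, 25.1, 22.1, 23.5 and 20.7 in CD90+/CD133+ cells, 17.4, 20.7, 21.2, 18.6 and 15.8 in CD90+/CD133- cells, and 26.2, 20.1, 19.2, 18.8 and 23.2 in CD90-/CD133- cells, all close to the lower end of the scale. In all 5 of 5 pairs the CD90+/CD133+ array was above the CD90+/CD133- array, by a log2 fold change of 0.25 (standard error 0.123) that was not called. Of the other 3 SOX2 probe sets none exceeded 24.1. By 238285_at SOX5 read 23.7 to 29.6 in CD90+/CD133+ cells, 19.3 to 25.96 in CD90+/CD133- cells and 22.5 to 30.9 in CD90-/CD133- cells, and its other 3 probe sets were under 16 throughout.
SOX13, a SOXD factor first known as an autoantigen, was well above 16 by 209736_at. Its values were 161 to 218 in CD90+/CD133+ cells, 169 to 236 in CD90+/CD133- cells and 173 to 210.0 in CD90-/CD133- cells. The log2 fold changes were 0.07 and -0.06 against CD90-/CD133- cells in CD90+/CD133- and CD90+/CD133+ cells (standard error 0.0851). By 38918_at the CD90+/CD133- array was above the CD90-/CD133- array in 5 of 5 pairs (log2 fold change 0.17, standard error 0.0986), also not called. Between the CD90+ fractions 38918_at had a log2 fold change of -0.33 (lower in CD90+/CD133+ cells in 4 of 5 pairs, adjusted p = 0.114 in limma) and 209736_at one of -0.13. The remaining SOX13 probe set was under 16 throughout.

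The members differed in how much of their spread went with the fraction and how much with the replicate number. For SOX7 (228698_at) the fraction held 95.0% of the sum of squares of the log2 values and the replicate number 1.3%, and for SOX11 (204914_s_at) 90.2% and 6.25%. For SOX12 (204432_at) the shares were 83.4% and 6.99%. For SOX4 (201417_at) the order was the reverse, with 14.8% for the fraction and 81.6% for the replicate number, and for SOX9 (202936_s_at) with 15.2% and 73.3%. SOX4 averaged 590.3 over the 3 arrays of replicate 1 and 2091 over those of replicate 5, while SOX9 averaged 443 in replicate 1 and 202 in replicate 5 (means on the log2 scale, set back to intensity). What the replicate numbers differ in is not named in the labels beyond a shared code for replicates 4 and 5.

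**Figure D4:**
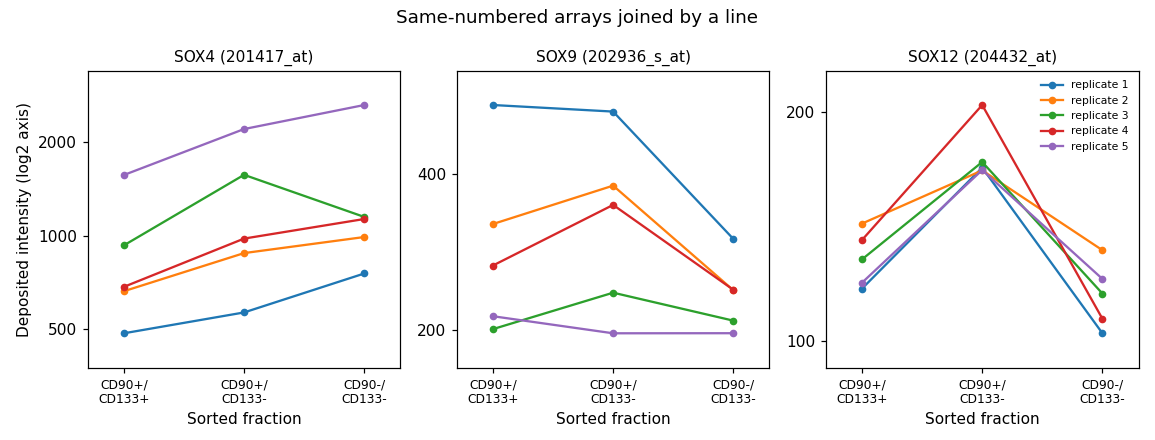
Deposited intensity (log2 axis) of SOX4, SOX9 and SOX12 in CD90+/CD133+ cells, CD90+/CD133- cells and CD90-/CD133- cells, with arrays of the same replicate number joined by a line. The SOX4 and SOX9 lines are spread by replicate number, with SOX4 averaging 590.3 in replicate 1 and 2091 in replicate 5, while the SOX12 lines peak together in CD90+/CD133- cells.

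The 9 other SOX genes on the list were read by 22 probe sets, of which 10 were under 16 on all arrays. None of the 22 was called higher in any comparison (at an unadjusted p under 0.05 in limma 1 was higher in CD90+/CD133+ cells against each other fraction), and 2 were called lower in each CD90+ fraction against CD90-/CD133- cells, where the percentages over all probe sets are those given above. SOX15 (206122_at), a factor of trophoblast and muscle progenitors in mice, read 319 to 440.3 in CD90+/CD133+ cells and 262 to 460.4 in CD90+/CD133- cells, against 478 to 660.5 in CD90-/CD133- cells. Neither CD90+ fraction overlapped CD90-/CD133- cells. Its log2 fold change was -0.51 in CD90+/CD133+ cells (adjusted p = 6e-04 in limma) and -0.56 in CD90+/CD133- cells (adjusted p = 3.58e-04), each in 5 of 5 pairs. Its second probe set, 217040_x_at, gave log2 fold changes of 0.00 in CD90+/CD133+ cells and -0.16 in CD90+/CD133- cells and was not called.
SOX6 (235526_at), the SOXD partner of SOX5 in cartilage, read 65.1 to 123 in CD90+/CD133+ cells, 72.0 to 176 in CD90+/CD133- cells and 95.4 to 206 in CD90-/CD133- cells. Its log2 fold change was -0.69 in CD90+/CD133+ cells (adjusted p = 7.72e-04) and -0.53 in CD90+/CD133- cells (adjusted p = 0.00317), lower in 5 of 5 pairs each. The groups overlapped, and another SOX6 probe set above 16, 228214_at, gave -0.01 in CD90+/CD133+ cells and -0.04 in CD90+/CD133- cells. For SOX1, SOX3, SOX8, SOX10, SOX14, SOX21 and SOX30 no probe set was called in any comparison.

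Genes known to work with SOX factors were read from 6 lists, with 1 probe set per gene, the brightest. These lists, like the members, were chosen with earlier results of these data known. Over all 19775 genes, 30.2% were called in CD90+/CD133- against CD90-/CD133- cells, 28.8% in CD90+/CD133+ against CD90-/CD133- cells and 3.46% between the CD90+ fractions.
Of 10 beta-catenin and TCF partners, 4 were called higher and 1 lower in CD90+/CD133- against CD90-/CD133- cells, and 3 higher and 1 lower in CD90+/CD133+ cells. The median log2 fold change over the list was 0.31 in CD90+/CD133- cells and 0.23 in CD90+/CD133+ cells, against 0 over all genes. The medians of the other 5 lists lay between -0.04 and 0.00 in CD90+/CD133- cells and between -0.06 and 0 in CD90+/CD133+ cells. CTNNB1, which encodes beta-catenin, read 3913 to 4691 in CD90+/CD133+ cells and 4452 to 5977 in CD90+/CD133- cells, against 2826 to 3645 in CD90-/CD133- cells, and was called higher in both. Its log2 fold change in CD90+/CD133+ over CD90+/CD133- cells was -0.28 (adjusted p = 0.0443), a call that 24 of 32 alternatives ended. ZNRF3, a membrane ligase that lowers Wnt receptors, had a log2 fold change of 0.98 in CD90+/CD133- cells (adjusted p = 0.00259), and the nuclear partner LEF1 one of -0.95 (adjusted p = 0.0087). Of 32 alternatives, 9 ended the LEF1 call in CD90+/CD133+ cells and 3 in CD90+/CD133- cells, and for ZNRF3 the numbers were 5 and 0.
Of 14 endoderm and vascular genes linked with SOXF factors, 1 was called higher and 2 lower in CD90+/CD133- cells, and 1 higher and 3 lower in CD90+/CD133+ cells, both against CD90-/CD133- cells. The endoderm factor GATA6 read 9.01 to 23.5 in CD90+/CD133+ cells and 13.5 to 38.5 in CD90+/CD133- cells, against 41.0 to 217 in CD90-/CD133- cells, and was called lower in both. EFNB2, an ephrin of arteries, was lower at -1.51 in CD90+/CD133+ cells and -1.14 in CD90+/CD133- cells, and the protease gene MMP7 was higher at 1.65 in CD90+/CD133+ cells and 1.62 in CD90+/CD133- cells, all as log2 fold changes. Of 32 alternatives, 7 ended the MMP7 call in CD90+/CD133+ cells and 8 in CD90+/CD133- cells, and for EFNB2 the numbers were 1 and 8.
Of 8 measured Mullerian factors known to be expressed beside SOX17, 1 was called higher and 2 lower in CD90+/CD133- cells, and 1 higher and 3 lower in CD90+/CD133+ cells. EMX2, a homeobox factor of the reproductive tract, was under 16 on all CD90+/CD133+ arrays (5.17 to 7.43) and read 6.19 to 24.5 in CD90+/CD133- cells, against 255 to 362 in CD90-/CD133- cells. MECOM, a zinc-finger factor at a locus often gained in ovarian cancer, was higher by log2 fold changes of 2.81 in CD90+/CD133+ cells and 2.98 in CD90+/CD133- cells. PAX8 read 506 to 964 over the 15 arrays and was not called.
Of 9 SOXC targets and partners, 3 were called higher and 3 lower in CD90+/CD133- cells, and 2 higher and 2 lower in CD90+/CD133+ cells. EZH2, a histone methyltransferase that SOX4 is known to induce, was higher by 1.09 in CD90+/CD133+ cells and 0.86 in CD90+/CD133- cells on the log2 scale. The neuronal gene MAP2 had log2 fold changes of -2.37 in CD90+/CD133+ cells and -1.90 in CD90+/CD133- cells, and TEAD2, a partner of the YAP coactivator, of -0.69 and -0.80 in the same fractions. TUBB3 was called lower only in CD90+/CD133- cells (-0.59), a call that 7 of 32 alternatives ended, and the difference between the CD90+ fractions was not called. Of 12 cartilage targets of SOX9, SOX5 and SOX6, 1 was called higher and 1 lower (MIA) in CD90+/CD133- cells and 1 higher in CD90+/CD133+ cells. COL9A3, a collagen chain, was called higher in CD90+/CD133+ cells at 2.82-fold and in CD90+/CD133- cells at 3.22-fold, and COL9A1, COL2A1 and ACAN were not called. Of 10 measured SOX2 partners in pluripotency only KLF4 was called, lower at a mean of 217 in CD90+/CD133+ cells and 352 in CD90+/CD133- cells, against 705 in CD90-/CD133- cells, and 14 of 32 alternatives ended the second call. Between the CD90+ fractions the 6 lists held 1 gene called higher (MIA) and 2 called lower (CTNNB1 and DICER1).

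**Figure D5:**
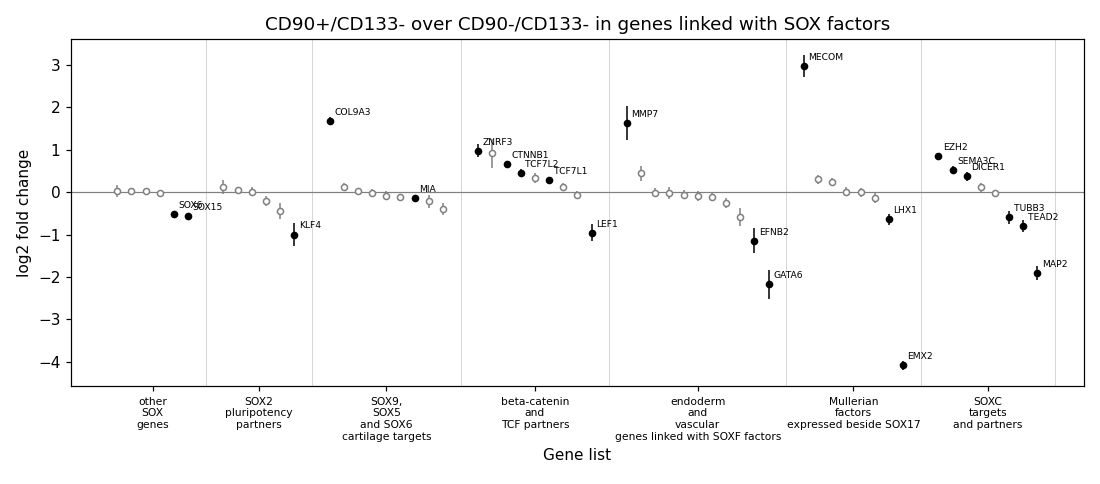
Log2 fold change in CD90+/CD133- over CD90-/CD133- cells of other SOX genes and genes linked with SOX factors, 1 probe set per gene, with standard errors as bars. Filled and named points were called at an adjusted p under 0.05, and genes with a mean of 16 in both fractions are left out. Called genes lie on both sides of 0, between -4.09 for EMX2 and 2.98 for MECOM.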

How the data were processed

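RNA of 15 PEO1 samples was hybridized by a microarray service to Affymetrix U133 Plus whole-genome arrays, and the deposited values are linear intensities that the authors had normalized by cross-correlation, with 5 as the lowest value. How probes were summarised, and why no value is lower, is not given in the sources used here. No further normalization was applied. Log2 was taken after values below 16 were raised to 16. Array medians were 29.4 to 32.4, and 32.7% to 34.5% of probe sets were under 16. No depth applies to arrays, and 5 per fraction limit the precision. No pair of arrays held identical values.

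Symbols came from the platform annotation, where 41097 probe sets name 1 gene, 1801 several and 11777 none. All 29 member IDs matched RefSeq of GRCh38.p14 with the same symbol. The 62 control probe sets were set aside, and 54613 were fitted in R 4.3.3 with lmFit and eBayes of limma 3.58.1 (all 15 arrays, replicate number as a block, 2-sided, Benjamini-Hochberg over all, adjusted p under 0.05). The 14609 probe sets under 16 on every array were given no difference. For CD90+/CD133- over CD90-/CD133- cells, simulated data (54613 probe sets, 200 changed) were tested. There 91% of 2-fold and 99% of 4-fold changes were recovered and 5% of calls were false. On the measured arrays 22.7% of all probe sets were called in this comparison, a larger share than the 200. Recovery among dim probe sets, such as those of SOX11, SOX2 and SOX5, was not tested. Same-numbered arrays correlated at 0.12 to 0.758 in their deviations from the group mean, above 0.1 in every pair of each comparison, so the numbers were taken to pair the arrays. Differently numbered arrays averaged between -0.115 and -0.0938 but reached 0.158, 0.153 and 0.275 by comparison, above the lowest same-numbered values (0.12, 0.152 and 0.24). A limit of 0.1 thus does not by itself separate pairs from other arrays. For arrays of the first-named fraction, the same-numbered array correlated best for 5 of 5 in each comparison. Pairing by replicate number was also set together with the choice of genes, so it did not come from this check alone. The labels number the replicates without naming them as pairs.

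The SOX genes, the 7 gene lists and the marker lists were chosen with earlier results of these data known. Text names all members with their brightest probe set, by the highest mean, and the range of the others, every other SOX gene and up to 4 called genes of each list, the sort markers, and, picked after their values were seen, PAX8, COL9A1, COL2A1, ACAN, DICER1 and the markers CLDN3, KRT8, KRT18, FAP, DCN and CD14. The methods call genes at 1.5-fold and name no array test, so the t-test of the paper's general statistics, here the methods' t-test, was an alternative. Others were quantile normalization, median centring, floors of 1 and 64, only brighter probe sets, no block, the label code as a block, 2 fractions per fit, an intensity trend, 1 value per gene, and each replicate number or array left out. Leaving out of the fit the probe sets under 16 on every array was added after the data were seen.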

Additional observations from a re-analysis of the deposited data

Results flagged for a closer look

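In 46 groups of 5 arrays, 1 for each of these genes and fractions with any spread, the highest or lowest array was set against the others by the gap to its nearest neighbour over the whole range, on the log2 scale, and 5 groups had an array farther out than Dixon's 95% limit of 0.71. Chance gives about 1 in 20 groups. For SOX11 the CD90+/CD133- replicate 5 array read 23.1, against 17.2 for the next, and it passed the limit only because the 3 arrays under 16 were raised to 16 (0.797, against 0.607 on the deposited values). For SOX12 the CD90+/CD133- replicate 4 array read 204, against 172 for the next. For SOX15 replicate 5 was the low array in both CD90+ fractions, at 319 in CD90+/CD133+ cells (next 431) and 262 in CD90+/CD133- cells (next 407). Replicate 5 was also the lowest CD90-/CD133- array for SOX15, at 478 (next 575), within the limit. For SOX10 the CD90-/CD133- replicate 5 array read 34.4, against 45.4 for the next.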

How the results depend on the processing

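In CD90+/CD133- over CD90-/CD133- cells 6 SOX probe sets were called higher, 4 lower and 12373 of all, in CD90+/CD133+ over CD90-/CD133- cells 2, 7 and 11608, and in CD90+/CD133+ over CD90+/CD133- cells 0, 3 and 1623. Under every alternative that gave each gene a value the SOX7 and SOX11 calls against CD90-/CD133- cells held, except SOX11 with a floor of 64, which sets it to 0 by construction. The count of lower SOX probe sets between the CD90+ fractions was the least stable. It was 1 with quantile normalization and with median centring, 5 (2810 of all) with a floor of 1, 7 (4060) over brighter probe sets, 0 (19) with only those arrays and the replicate block, and 1 (597) at 1.5-fold without a test. It was 5 (3546) with probe sets under 16 on every array left out of the fit, an alternative chosen after seeing the data. With a floor of 64 the lower counts were 1 and 4 in CD90+/CD133- and CD90+/CD133+ cells over CD90-/CD133- cells, with 7726 of all in the second and 567 between the CD90+ fractions. Over brighter probe sets the lower counts were 1 and 4, and at 1.5-fold 2 and 4 (5434 and 5126 of all).

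Without the replicate block all calls were 8016, 7128 and 240 in the 3 comparisons, and the lower SOX counts were 3 for CD90+/CD133+ over CD90-/CD133- cells and 1 between the CD90+ fractions. The label code as a block gave 3 and 1 (738 of all). The methods' t-test at an unadjusted p under 0.05 gave 3 lower for CD90+/CD133+ over CD90-/CD133- cells, and 2 higher and 5070 of all between the CD90+ fractions. After Benjamini-Hochberg it gave 3 higher in the first comparison, 3 lower in the second and 0 lower in the third (5878, 6225 and 8 of all). With the brightest probe set per gene 3 genes were higher and 1 lower in the first comparison and 1 higher and 2 lower in the second (6399, 6163 and 912 genes of all), and with the mean per gene the same SOX counts (6465 and 6244 of all).

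With a replicate number or a single array left out, the higher and lower SOX counts were 3 to 6 and 2 to 6 in the first comparison, 2 to 3 and 6 to 7 in the second, and 0 and 0 to 6 in the third, and all calls 8775 to 12139, 8358 to 12180 and 2 to 1549. In the first comparison the higher count was 3 without replicate 2 or 4, and the lower count 2 without replicate 1, 2 or 4 or CD90-/CD133- replicate 4. In the third the lower count was 0 or 1 without any replicate number or array except CD90-/CD133- replicates 3 (6) and 4 (2), and all calls were 2 without replicate 4. Values near 0 changed sign: SOX5 in CD90+/CD133+ over CD90-/CD133- cells was at 0.031 with quantile normalization and with median centring and at -0.040 to 0.038 over the leave-outs, SOX2 there at -0.0091 to 0.172, and SOX13 in CD90+/CD133- over CD90-/CD133- cells at -0.026 to 0.132. Of the 939 settings tried on the members' brightest probe sets, 880 kept direction and side of the threshold, 36 lost a call and 9 gained one. The 880 include those of SOX17 and SOX18, where this was nearly fixed in advance, since a floor of 16 sets their differences to 0. Of 1024 settings on named other genes, 929 kept direction and side of the threshold and 95 lost the call. The cause was not tested. Arrays give no depth, and near 16 signal over background limits what can be read.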
